A study of Homo sapiens with 6 samples.

Results

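Zinc finger genes of chromosome 19 were followed in T98G cells after knockdown of the kinase DYRK1A. Members were the genes with a ZNF symbol (the letters ZNF, a number and at most 1 further letter) that lie on chromosome 19 and had a mean of at least 100 spike-in normalized counts over all 6 libraries. The floor was therefore a choice on measured values, made without regard to the direction of change. It kept 190 genes of the 242 with such a symbol on chromosome 19, out of 23026 genes in the normalized table, and 52 genes lay below it. The same floor was passed by 12195 genes of the whole table, and each of the 190 members was tested.

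T98G is an established human glioblastoma cell line, and both groups carried a lentivirus: shControl expressed a control short hairpin RNA and shDYRK1A a hairpin against DYRK1A. Infected cells of both groups had been selected with puromycin and left to recover without it before RNA was taken. Each group had 3 libraries, 1A, 1B and 1C, and the labels do not say whether these came from separate infections, so the p-values measure the spread between these libraries, which may be technical. T98G cells in equal number had been mixed with a constant number of Drosophila Kc167 cells, and a normalized count is the raw count of a gene divided by the size factor that the authors took from the fly reads.

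Zinc finger proteins of the C2H2 type bind DNA through repeated short domains in which pairs of cysteines and histidines hold a zinc ion. Many also carry a KRAB domain, which recruits the scaffold TRIM28 (KAP1) and with it the histone methyltransferase SETDB1, heterochromatin proteins and deacetylases, and the best known task of this system is the silencing of transposable elements. In human the KRAB genes multiplied by tandem duplication, so that most of them sit in clusters of related neighbours on chromosome 19.

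The members were spread unevenly along chromosome 19 (GRCh38). When a new block was opened wherever more than 1 Mb separated a member from the next, they fell into 15 blocks, of which 9 had 5 or more members and held 178 of the 190. Block 15, at the end of the long arm (55.5 to 58.5 Mb), held 49 members, block 14 (51.6 to 53.6 Mb) held 36, block 9 (36.2 to 37.7 Mb) 20 and block 5 (19.7 to 21.9 Mb) 19. Blocks 3 (11.5 to 12.6 Mb) and 12 (43.6 to 44.5 Mb) held 16 members each, and block 2 (7.07 to 9.79 Mb) held 12. The widest gap between members was 8.22 Mb. Of the members, 107 lay on the plus and 83 on the minus strand. A KRAB A-box pattern was found in the translated GENCODE v29 transcripts of 160 members, 27 coding members lacked the pattern, and 3 (ZNF788, ZNF702P and ZNF542P) had no coding transcript in that annotation. The pattern is short and strict, so a member without it may still carry a KRAB domain. A median member held 12 C2H2 matches.

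One short sequence, which the choice of members did not use, was found in the promoters of a larger share of members than of tested genes. RefSeq promoter windows (GRCh38.p14, 250 bases before to 50 after a start) were matched by symbol for 169 members. In 86 of these 169 (50.9%) a window held CCGGAAG on either strand, the core bound by ETS factors such as GABPA, whereas 23.7% of the 9019 tested genes with a window and 10.3% of all 35116 windows held it. Per window the shares were 42.5% for members and 17.7% for tested genes, and members had fewer windows per gene (1.22 against 1.47). Of the 88 member windows with the core, 47 had their match nearest the start within 100 bases before it (53.4%, beside 56.5% for tested genes), and 31 had it after the start (35.2%, beside 18.6%). Of the other motifs, GGGCGG, the SP1 core, was found in 68.6% of members against 78.6% of tested genes, and AAGATGGCG, the YY1 core, in 7 members (4.14% against 5.1%), namely ZNF121, ZNF561, ZNF562, ZNF585B, ZNF383, ZNF615 and ZNF614. The palindrome TCTCGCGAGA, with which the study associates DYRK1A at chromatin, was present in 2 members, ZNF414 and ZNF850 (1.18% against 1.09% of tested genes). The letters were counted as exact matches, with motifs allowed to overlap. Neighbouring members can be related copies, and ZNF568 and ZNF829 share a site, so the 86 members are not independent occurrences. The share among ZNF genes of other chromosomes is not given here, so the ETS core cannot be called particular to chromosome 19.

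The ETS core was distributed by block. It was found in 5 of 5 members with a window in block 6 (23.3 to 24.1 Mb), 30 of 43 in block 15, 19 of 29 in block 14 and 10 of 16 in block 5, but in 1 of 15 in block 3, 3 of 11 in block 2 and 5 of 15 in block 12. Among members with the KRAB pattern 54.2% of 144 held it, and among coding members without the pattern 32% of 25.

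**Figure D1:**
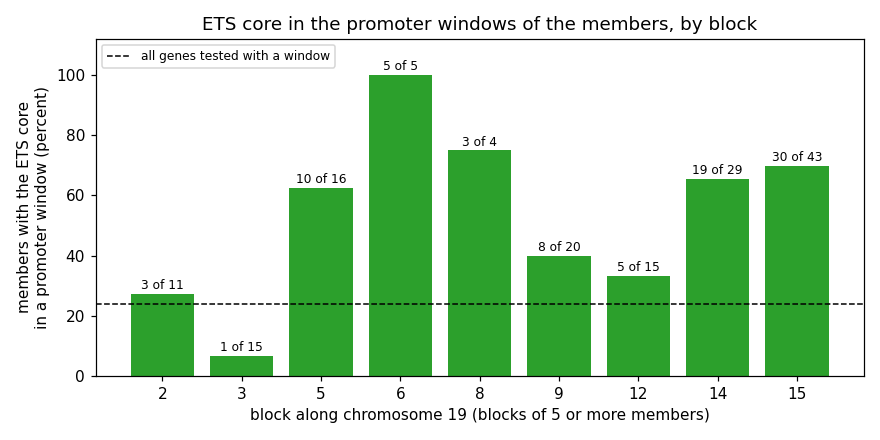
Bars give the percent of members with a promoter window that hold the ETS core CCGGAAG on either strand, for each block of 5 or more members, with the counts above the bars. The dashed line marks the 23.7% of all tested genes with a window. Blocks 5, 6, 8, 14 and 15 stand at or above 62.5%, and block 3 at 6.67%.

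The 250 bases before the RefSeq start are shown for the member with the lowest fold change (ZNF324B, chr19:58451372-58451621, plus strand), the member with the highest (ZNF846, chr19:9768739-9768988, minus strand) and ZNF568 (chr19:36916082-36916331, plus strand), with the ETS core in capitals. ZNF568 and ZNF829 are transcribed away from each other with GENCODE v29 starts 38 bases apart. The capitals in the ZNF568 sequence, at 36916294 to 36916300, are also the only ETS core in the windows of ZNF829. They lie 9 bases before the RefSeq start of the ZNF829 window that holds them. For ZNF850 (chr19:36772808-36773057, minus strand) and ZNF414 (chr19:8514154-8514183, minus strand, 30 bases that cross the start) the palindrome is in capitals.
ZNF324B: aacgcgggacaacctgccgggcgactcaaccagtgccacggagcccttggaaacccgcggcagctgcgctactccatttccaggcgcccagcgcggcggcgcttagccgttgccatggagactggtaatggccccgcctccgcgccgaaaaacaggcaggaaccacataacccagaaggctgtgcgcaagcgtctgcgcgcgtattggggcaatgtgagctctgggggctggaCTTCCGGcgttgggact
ZNF846: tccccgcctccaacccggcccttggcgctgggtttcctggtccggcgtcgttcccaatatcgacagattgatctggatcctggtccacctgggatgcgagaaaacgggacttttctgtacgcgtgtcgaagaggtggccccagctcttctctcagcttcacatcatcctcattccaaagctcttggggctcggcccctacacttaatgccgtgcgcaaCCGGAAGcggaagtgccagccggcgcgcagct
ZNF568: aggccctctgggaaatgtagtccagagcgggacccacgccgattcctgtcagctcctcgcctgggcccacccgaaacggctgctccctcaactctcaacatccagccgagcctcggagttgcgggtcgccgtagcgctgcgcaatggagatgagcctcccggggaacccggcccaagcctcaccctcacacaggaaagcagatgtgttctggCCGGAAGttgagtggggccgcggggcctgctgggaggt
ZNF850: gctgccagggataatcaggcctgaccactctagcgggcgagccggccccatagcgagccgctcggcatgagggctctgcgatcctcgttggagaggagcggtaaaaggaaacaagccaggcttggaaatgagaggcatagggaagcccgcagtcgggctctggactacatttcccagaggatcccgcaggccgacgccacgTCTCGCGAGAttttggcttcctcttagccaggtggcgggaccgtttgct
ZNF414: ccgcccccagTCTCGCGAGAgctgagaggt

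The medians with and without the ETS core were close. The median log2 fold change was -0.42 over the 86 members with it and -0.41 over the members with a window and without it. Of the members shown with the core, ZNF324B and ZNF846 are the extremes of all members and ZNF568, at -0.39, lies near the median. ZNF850 fell with spike-in scaling (log2 fold change -0.70, adjusted p 0.00219) but did not pass under TMM scaling, which sets each library to its human genes (-0.31, adjusted p 0.0925). ZNF414, with the same palindrome, had 0.09 (adjusted p 0.696) and 0.47 (adjusted p 0.00313) under the 2 scalings.

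Gene counts summed to between 33708297 and 42154438 per library, of which the members together held 72325 to 93567. The share of reads that were unmapped was 15.6% in shDYRK1A 1B and 8.44 to 11.9% in the other libraries, and 1B also differed most from its own group by count (chi-square per degree of freedom 13.5 and 16.5 against the other shDYRK1A libraries, 4.35 between those). DYRK1A, the target of the hairpin, had 2227, 2234 and 1895 normalized counts in the shControl libraries, against 1482, 1056 and 1285 in those of shDYRK1A (values throughout in the order 1A, 1B, 1C), and it fell by 0.73 on the log2 scale (SE 0.15, adjusted p 5.03e-06; under TMM -0.35, adjusted p 0.00033). Of the glial and mesenchymal markers, VIM, CD44, FN1 and SOX9 had means of 70689, 59699, 31538 and 1635 normalized counts and NES a mean of 71.7, while GFAP and S100B were not analysed here. Markers of other cells were low, with means of 3.91 for PTPRC (leukocytes), 42.9 for EPCAM (epithelium) and 13.5 for MBP (oligodendrocytes).

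With spike-in scaling most members were lower in shDYRK1A, as were most genes. Of the 190 members, 106 were lower in edgeR's quasi-likelihood test with the Benjamini-Hochberg adjusted p under 0.05 (55.8%, beside 58.4% of all 12195 genes tested), 1 was higher (beside 1.52%) and 83 did not pass. Past a log2 fold change of 0.7 as well, 21 members were called lower (11.1%, beside 14.6%) and 0 higher (beside 0.541%), the highest value being 0.42. DESeq2's Wald test also called 21 and 0, and at an unadjusted p below 0.05 the edgeR test gave 121 lower and 1 higher. The median log2 fold change of the members was -0.41 (quartiles -0.59 and -0.27, range -1.02 to 0.42) and that of all tested genes was -0.39. Of the 190 values 180 were negative (94.7%, beside 91.2% of all genes). In 106 members every shDYRK1A library lay below every shControl library, which is 55.8% beside 59.5% of all genes. The share of negative values lies a little above its background, and the other shares lie at or a little below theirs. They say nothing particular about the members.

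The shift that all genes share was removed by TMM, which scales each library to its human genes. Under TMM the medians were -0.02 for the members and -0.003 for all genes. At the adjusted p, 29 members were lower (15.3%, beside 26.9% of all genes) and 22 were higher (beside 24.9%). At an unadjusted p below 0.05, 42 were lower. Past the fold threshold 0 were called lower (beside 2.3%) and 2 higher (beside 2.07%), ZNF784 and ZNF846. ZNF784 passed the floor of 100 through shDYRK1A, its higher group, so its place in this count is in part set by the floor. In the fit with spike-in scaling, members were less precisely measured than a typical gene. The median SE of the log2 fold change in that fit was 0.18 for members and 0.15 for all genes. It was 0.21 for the 41 members with means from 100 to 200 and 0.15 for the 27 with 800 or more. SEs of the TMM fit are not given here.

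Single libraries moved these counts. The number called lower was 9 without shDYRK1A 1B, 12 without shControl 1A, 44 without shDYRK1A 1A and 47 without shControl 1C. The number lower at the adjusted p, 106 with all libraries, was 52 without shControl 1A, 65 without shDYRK1A 1B and 69 without shControl 1B.

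**Figure D2:**
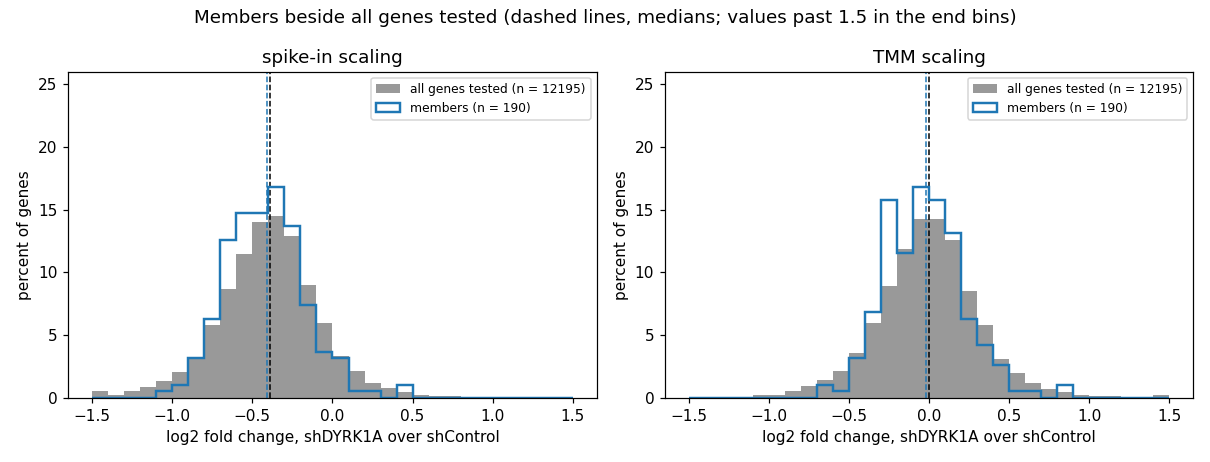
Histograms give the percent of genes by log2 fold change (shDYRK1A over shControl) for all 12195 tested genes in grey and the 190 members as a blue outline, with spike-in scaling on the left and TMM on the right. Dashed lines mark the medians, which lie at -0.41 for members and -0.39 for all genes on the left and next to 0 on the right.

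The 8 lowest members had log2 fold changes from -1.02 to -0.82. All 8 fell at the adjusted p under both scalings, with -0.65 to -0.44 under TMM. Of all genes, 58.4% were lower with spike-in scaling and 26.9% under TMM. Because the 8 were picked as the lowest of the spike-in fit, their passing is largely set by that choice. ZNF324B, a KRAB gene near the end of block 15, had 198, 231 and 185 normalized counts in shControl and 127, 72.3 and 103 in shDYRK1A. Its groups did not overlap, and it fell by 1.02 on the log2 scale (SE 0.21, adjusted p 9.59e-06). ZNF836, a KRAB gene of block 14 with 24 fingers, had raw counts of 126, 119 and 138 in shControl and 92, 54 and 91 in shDYRK1A. These amount to 141 ± 10.8 and 70.6 ± 18.8 normalized counts (SD, n = 3), and it fell by 0.99 (SE 0.22, adjusted p 5.6e-05). Its mean over all libraries passed the floor of 100 through shControl, since its shDYRK1A mean lay below it, so its place among the lowest members is in part set by the floor.

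ZNF788, listed as a transcribed pseudogene, was the best measured of the lowest, with 801, 797 and 671 normalized counts in shControl and 424, 363 and 368 in shDYRK1A. Its groups stood far apart, and it fell by 0.97 (SE 0.16, adjusted p 4.41e-08), with log2 fold changes between -1.05 and -0.93 when any one library was left out. ZNF702P, the other pseudogene among the lowest, had 481, 438 and 360 against 274, 183 and 236, a log2 fold change of -0.88 (adjusted p 9.39e-06). ZNF665, also in block 14, had 217, 227 and 168 normalized counts in shControl and 133, 96.4 and 114 in shDYRK1A, and its log2 fold change was -0.83 (adjusted p 0.000294). ZNF566 and ZNF585A, both of block 9, had log2 fold changes of -0.87 and -0.89 (adjusted p 5.68e-05 and 6.31e-05), and ZNF90 of block 5 had -0.82 (adjusted p 0.000249). In none of the 8 did a shDYRK1A library reach the lowest shControl library. The same held for 59.5% of all genes, and picking the lowest members favours it.

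The 8 highest members were mostly of another kind. Of ZNF846, ZNF784, ZNF580, ZNF358, ZNF414, ZNF428, ZNF350 and ZNF653, only ZNF846 and ZNF350 held the KRAB pattern. ZNF846, a KRAB gene with 11 fingers in block 2, had 226, 207 and 148 normalized counts in shControl and 243, 271 and 261 in shDYRK1A. Its groups did not overlap, and it was the only member that rose with spike-in scaling (0.42, SE 0.19, adjusted p 0.0497), a call that sits at the threshold and was lost in 5 of the 6 fits with one library left out (adjusted p 0.0534 to 0.236) and with looser count filters (0.0554 and 0.0652). Under TMM its log2 fold change was 0.83 (adjusted p 0.000238), and with a GC content offset it was 0.47 (adjusted p 0.0255).

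ZNF784, a gene of block 15 with 6 fingers and no KRAB pattern, had 85.2, 109 and 74.0 normalized counts in shControl and 131, 114.9 and 111 in shDYRK1A. All shDYRK1A libraries lay above all shControl libraries by a narrow margin, and the log2 fold change of 0.42 did not pass (SE 0.22, adjusted p 0.0917). It stood at 89.4 ± 17.8 (SD, n = 3) in shControl, below the floor of 100 that its mean over all libraries passed. ZNF784 thus passed the floor through shDYRK1A, and its place among the highest members is in part set by the floor. ZNF580 had 1159, 1308 and 953 normalized counts in shControl and 1579, 1397 and 1203 in shDYRK1A. These overlapped, with a log2 fold change of 0.29 (SE 0.15, adjusted p 0.0813). ZNF350 (ZBRK1), a KRAB repressor known to bind BRCA1, had 342, 300 and 270 against 357, 282 and 292, a log2 fold change of 0.03 (adjusted p 0.881).

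The other 4, ZNF653, ZNF428, ZNF414 and ZNF358, had log2 fold changes from 0.03 to 0.14, and none passed with spike-in scaling. Under TMM all 8 of the highest passed as higher, relative to the median gene, with 0.42 to 0.83 (adjusted p at most 0.0128). Of all genes, 24.9% were higher under TMM. The 8 were picked as the highest of the spike-in fit and TMM raised their values, so their passing is largely set by that choice. With the GC content offset ZNF653, ZNF428, ZNF414 and ZNF358 turned slightly negative (-0.10 to -0.002), and none of these 4 passed.

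**Figure D3:**
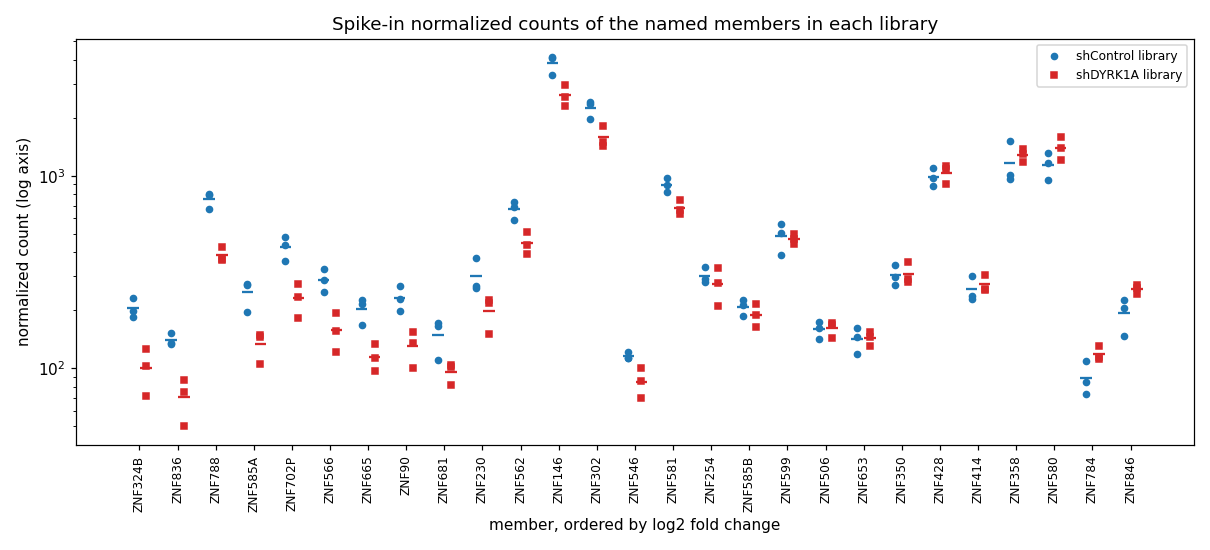
Each point is the spike-in normalized count of a named member in 1 library (log axis), blue circles for shControl and red squares for shDYRK1A, with short lines at the group means. Members run from the lowest log2 fold change (ZNF324B, -1.02) to the highest (ZNF846, 0.42). The groups of the 8 lowest, which were picked by this value, do not overlap.

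Per kilobase of exon the members were weakly expressed. Their median level in shControl was 72.2 normalized counts per kb, against 284 for all tested genes and 125.3 for the 214 ZNF genes of other chromosomes at the floor. The highest levels per kb belonged to ZNF146 (927), a protein that consists of little more than fingers, ZNF358 (561), ZNF428 (546), ZNF581 (518) and ZNF302 (445). ZNF146 had 4082, 4112 and 3337 normalized counts in shControl and 2959, 2312 and 2559 in shDYRK1A, and fell by 0.56 (SE 0.14, adjusted p 0.000279; under TMM -0.17, adjusted p 0.00761). ZNF302 had 2357, 2411 and 1957 against 1811, 1431 and 1502, and its log2 fold change was -0.50 (adjusted p 0.00151), a call lost under TMM (-0.11, adjusted p 0.0836). ZNF581 had a log2 fold change of -0.40 (adjusted p 0.0192), with non-overlapping groups. The call was lost under TMM (-0.01, adjusted p 0.894) and without shControl 1A (-0.40, adjusted p 0.0746), shControl 1B (-0.34, adjusted p 0.127) or shDYRK1A 1C (-0.35, adjusted p 0.143). ZNF580, whose span overlaps its own, was among the highest. Of the exonic bases of ZNF580 15.1%, and of those of ZNF581 23.4%, also belong to a different gene of the same strand, where reads cannot be assigned. Such overlap passed 10% in 22 members.

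Along the chromosome, each of the 9 larger blocks had a negative median with spike-in scaling. Block 9 had the lowest median (-0.56), with 15 of 20 members lower at the adjusted p (75%, beside 58.4% of all genes). Of these, 4 were called past the fold threshold (beside 14.6% of all genes). Values in block 9 ran from -0.89 (ZNF585A) to -0.13 (ZNF585B), which are immediate neighbours. Block 5 followed with -0.51 (12 of 19 or 63.2% lower, from ZNF90 at -0.82 to ZNF506 at 0.02). Block 14 had -0.45 (26 of 36 or 72.2% lower, from ZNF836 at -0.99 to ZNF350 at 0.03). Block 14 held 8 of the 21 members called lower and block 5 held 5.

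The medians of the other larger blocks lay closer to 0. They were -0.40 in block 8 (3 of 5 lower, ZNF302 at -0.50 to ZNF599 at -0.05), -0.38 in block 3 (7 of 16, ZNF788 at -0.97 to ZNF653 at 0.03) and -0.35 in block 2 (7 of 12, ZNF562 at -0.59 to ZNF846 at 0.42). Block 15 had -0.33 (23 of 49, ZNF324B at -1.02 to ZNF784 at 0.42), block 6 had -0.30 (2 of 5, ZNF681 at -0.64 to ZNF254 at -0.14) and block 12 had -0.27 (6 of 16, ZNF230 at -0.59 to ZNF428 at 0.08). ZNF681 had means of 149 normalized counts in shControl and 95.6 in shDYRK1A, so it passed the floor through shControl. Its place as the lowest of block 6, and among the members counted as lower there, is in part set by the floor. The share lower at the adjusted p was 60% in block 8, beside 58.4% of all genes. It was 37.5 to 58.3% in blocks 2, 3, 6, 12 and 15. Under TMM the medians ran from -0.17 in block 9 and -0.12 in block 5 to 0.11 in block 12, so that those of blocks 2, 3, 6, 12 and 15 turned positive. At the adjusted p under TMM 4 of 20 members in block 9, 5 of 19 in block 5 and 10 of 36 in block 14 were lower (beside 26.9% of all genes).

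Sums over a block show the spread between libraries. The members of block 9 summed to 10365, 10236 and 8423 normalized counts in shControl and 7436, 5755 and 6621 in shDYRK1A, groups that did not overlap. Those of block 12 summed to 10299, 10084 and 8843 in shControl and 9445, 7601 and 8257 in shDYRK1A, where shDYRK1A 1A lay above shControl 1C. The SD of the log2 fold changes among the members of one block was 0.18 to 0.31 in the 9 larger blocks, beside a median SE of 0.18 for a single member. The order of the blocks is a description and was given no test.

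**Figure D4:**
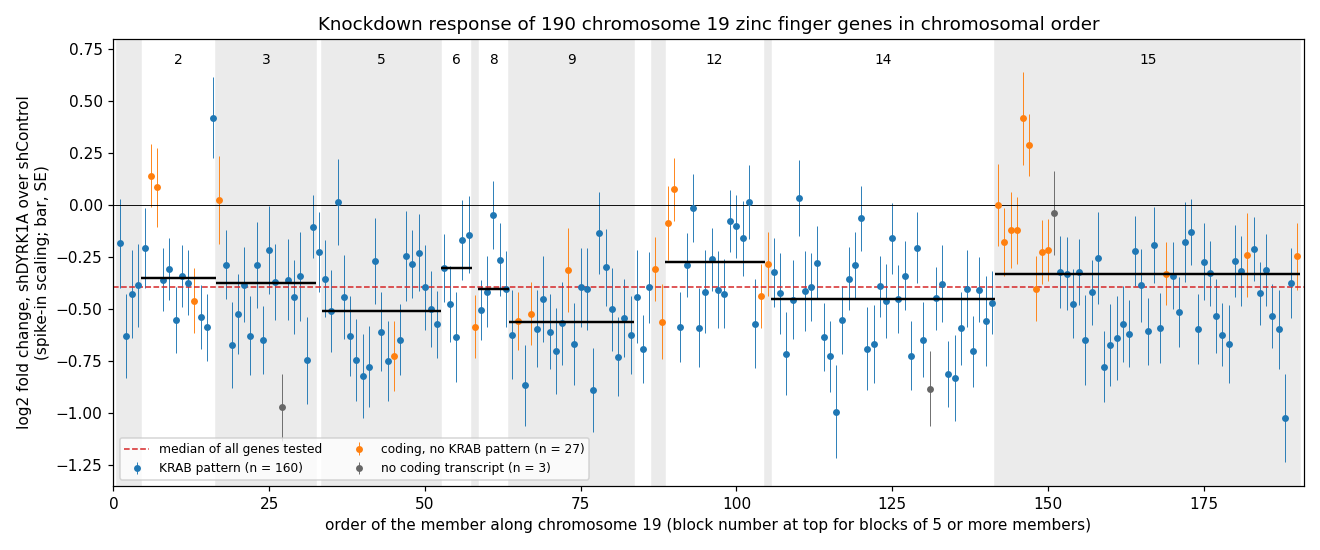
Points give the log2 fold change (shDYRK1A over shControl, spike-in scaling) of the 190 members in chromosomal order, with bars of 1 SE, in blue for members with the KRAB pattern, orange for coding members without it and grey for members with no coding transcript. Shading separates the blocks, black lines mark the medians of blocks with 5 or more members (lowest in block 9, -0.56, highest in block 12, -0.27) and the red dashed line the median of all tested genes (-0.39).

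Neighbours resembled each other a little more than members picked from anywhere. Over 175 adjacent pairs within a block Pearson's r of the log2 fold changes was 0.27, and the median absolute difference was 0.19 against 0.23 over all pairs of members. Adjacent members share base composition, related sequence and in places exons, so these values only describe the order.

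Pairs of members that share a number and differ in a letter were compared through the ratio of their counts within each library, which uses no size factor. There were 4 such pairs, and in all 4 the ratio in the shDYRK1A libraries did not overlap with that in the shControl libraries. The share of other gene pairs without overlap is not given here, so this count says nothing particular about these pairs. The log2 ratio of ZNF585A to ZNF585B was 0.34, 0.28 and 0.07 in shControl and -0.53, -0.64 and -0.39 in shDYRK1A (raw counts, not per length). The difference was -0.75. The log2 ratio of ZNF324 to ZNF324B was 1.31, 1.12 and 1.22 in shControl and 1.58, 2.15 and 1.96 in shDYRK1A, a difference of 0.68. For ZNF587 to ZNF587B the difference was -0.30 and for ZNF780A to ZNF780B it was 0.31. The two-sided exact permutation p was 0.1 for each pair, which is the smallest that 3 libraries against 3 allow, and it remains 0.1 after Benjamini-Hochberg adjustment over the 4. Reads that match more than 1 place were not counted by the authors' counter, so values of such near relatives rest on the bases in which they differ.

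Between members with and without the KRAB pattern the median response and the base composition moved together. Over the 160 members with the pattern the median was -0.42, and 95 were lower at the adjusted p (59.4%, beside 58.4% of all genes). The 27 coding members without it had a median of -0.24, and 9 were lower (33.3%). Under TMM the medians were -0.04 and 0.15, and with the GC content offset they were -0.37 and -0.30. The median GC content of the exons was 41.9% with the pattern and 58.7% without it, so that KRAB and GC content cannot be told apart in these groups. On other chromosomes the ZNF genes with and without the pattern had medians of -0.40 (93 genes, GC content 42.9%) and -0.41 (117 genes, GC content 50.01%).

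The 52 members with a GC content below 40% had a median log2 fold change of -0.50, the 84 from 40 to 45% had -0.41, the 36 from 45 to 55% had -0.39 and the 18 at 55% or more had -0.15. All tested genes in the same bins had medians of -0.52, -0.46, -0.37 and -0.29. With an offset for GC content, fitted over all genes and chosen after the data were seen, the medians of the members in these bins were -0.37, -0.33, -0.40 and -0.28, and over all members the median was -0.35 beside -0.39 for all genes. The number lower at the adjusted p was then 86 (45.3%, beside 60.3% of all genes). The number called lower was 11 (5.79%, beside 13.2% of all genes). Both shares lay further below their background than without the offset. Without the offset, Spearman's rho of log2 fold change with GC content was 0.15 within the 160 KRAB members. Within the 27 without the pattern it was 0.76. With the offset these were -0.066 and 0.50. In the 27, rho without the offset was also -0.72 with exon length and -0.68 with the length of the 3′ untranslated region. These are correlations across genes of the same libraries, which are not independent.

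By number of fingers, the 9 coding members with 0 to 4 C2H2 matches had a median of -0.12 in log2 fold change and of 59.6% in GC content. The 39 with 5 to 9, the 76 with 10 to 14 and the 63 with 15 or more had medians of -0.42, -0.43 and -0.41.

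**Figure D5:**
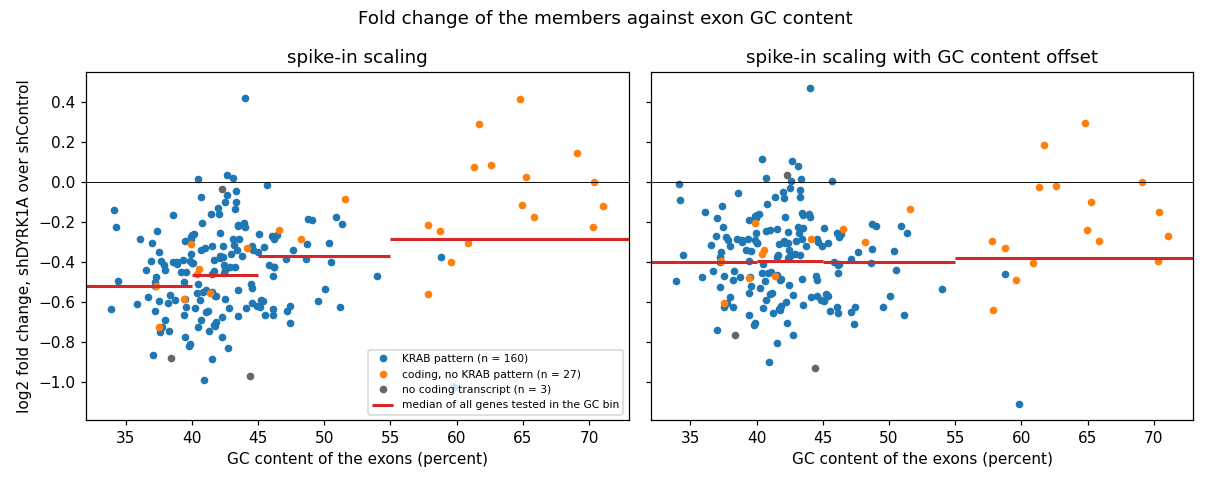
Points give the log2 fold change of each member (shDYRK1A over shControl) against the GC content of its exons in percent, coloured by KRAB pattern, with spike-in scaling on the left and the GC content offset added on the right. Red lines are the medians of all tested genes in the 4 GC bins, from -0.52 to -0.29 on the left. The 18 members at 55% GC or more have a median of -0.15 on the left and -0.28 on the right, and include ZNF324B, the lowest point of both panels.

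The longest run of coding neighbours without the pattern opened block 15. It held 9 genes, ZNF628, ZNF579, ZNF524, ZNF865, ZNF784, ZNF580, ZNF581, ZNF787 and ZNF444 (55.5 to 56.2 Mb), with GC contents from 57.8 to 71.1%. Their median log2 fold change was -0.12, and 1 of the 9 (ZNF581) was lower at the adjusted p (beside 58.4% of all genes). The other 40 members of block 15 had a median of -0.38 with 22 lower. Under TMM the medians were 0.28 and 0.01, and with the GC content offset the run had -0.27. The run was singled out after its values were seen.

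The members were set beside the groups most like them. The 214 ZNF genes of other chromosomes at the floor had a median log2 fold change of -0.40 with 124 (57.9%) lower at the adjusted p, next to -0.41 and 55.8% for the members. The 651 other genes of chromosome 19 had a median of -0.29 with 42.9% lower and a median GC content of 59.7%, against 42.3% for the members. The 66 tested genes of other names that lie inside the larger blocks had a median of -0.26 with 20 lower (30.3%, beside 58.4% of all genes). With the GC content offset these medians were -0.40, -0.37 and -0.29, and that of the members -0.35. The differences between these groups of genes were not tested.

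For 4 further members a task is known. ZNF91, which restrains SVA elements, had 588, 642 and 483 normalized counts in shControl and 610, 342 and 436 in shDYRK1A, and did not pass (-0.30, adjusted p 0.0941). ZNF93, which acts on older LINE-1 elements, had 354, 291 and 219 against 229, 154 and 175, with a log2 fold change of -0.63 (adjusted p 0.00303; under TMM -0.24, adjusted p 0.149). ZNF274, which brings SETDB1 to zinc finger genes, had -0.21 (adjusted p 0.221), and ZNF473, a factor of histone mRNA 3′ processing, had -0.28 (adjusted p 0.0934); under TMM both were positive (0.18 and 0.11). These 4 were picked for their roles after the values were seen.

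As a share of all gene counts, a measure that needs no size factor, the members held 0.222, 0.222 and 0.217% in shControl and 0.235, 0.215 and 0.229% in shDYRK1A. The groups overlapped, because shDYRK1A 1B lay lowest and the other shDYRK1A libraries highest. The means were 0.220 ± 0.00276% and 0.226 ± 0.0105% (SD, n = 3). In single libraries the 95% Wilson intervals ran, for example, from 0.233 to 0.236% in shDYRK1A 1A and from 0.213 to 0.216% in shDYRK1A 1B, and they cover counting error only.

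A list of 31 tested genes (the partner list) was taken. It holds the repression machinery of KRAB proteins, such as TRIM28 and SETDB1, together with other genes of heterochromatin and DNA methylation, such as EHMT2 and UHRF1. With spike-in scaling 24 were lower at the adjusted p (beside 58.4% of all genes), 0 were higher (25 were lower and 0 higher at an unadjusted p below 0.05, and DESeq2 gave 25 and 0) and 5 were called lower past the fold threshold (beside 14.6% of all genes, a share near that of the list). Over the list the median log2 fold change was -0.40, close to that of all genes. The 5 were EHMT2, a histone H3 lysine 9 methyltransferase (-1.05), UHRF1, which guides maintenance DNA methylation (-0.96), the remodeller SMARCAD1 (-0.85), FAM208A (TASOR) of the HUSH complex (-0.81) and the heterochromatin protein CBX5 (-0.76). EHMT2 had 4109, 4477 and 3655 normalized counts in shControl and 2099, 1809 and 1984 in shDYRK1A, and all 5 also fell under TMM (-0.66 to -0.37).

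TRIM28, the scaffold itself, lies on chromosome 19 beyond the last member of block 15. It had 20649, 21491 and 17502 normalized counts in shControl and 15450, 14001 and 14198 in shDYRK1A, and its log2 fold change was -0.45 (SE 0.13, adjusted p 0.00163), which was -0.06 under TMM (adjusted p 0.358). SETDB1 had 1878, 1819 and 1565 against 1770, 1415 and 1495, groups that overlapped. Its log2 fold change was -0.17 (adjusted p 0.303) with spike-in scaling and 0.22 (adjusted p 0.00363) under TMM. MBD3, the highest of the list, stood at -0.02 (adjusted p 0.895) and turned to 0.37 (adjusted p 0.000374) under TMM. Under TMM 10 of the 31 were lower (beside 26.9% of all genes) and 6 higher (beside 24.9%), near the background. The count of 24 was 14 without shDYRK1A 1C, 15 without shControl 1A or 1B and 16 without shDYRK1A 1B.

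At the floor, the members just above it were ZNF546 (mean 101 normalized counts), ZNF784 (104) and ZNF836 (106), and the genes just below were ZNF404 (99.9), ZNF284 (95.5) and ZNF382 (91.8). Of the 52 genes under the floor 12 had a mean below 10. With members required to reach a mean of 200, 149 remained, with a median log2 fold change of -0.40.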

How the data were processed

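RNA from 6 libraries of T98G cells, 3 shControl and 3 shDYRK1A, grouped by sample title, was analysed. The authors deposited raw read counts per gene, made from stranded paired-end mRNA reads. Per the labels, STAR and DESeq2 were used with the builds hg38 and dm3; their versions are not given in the sources used here. The authors also deposited a normalized signal table, in which each library's counts are divided by 1 spike-in size factor. The deposited comparison of the authors (fold changes, p-values) was not used. Columns of per-sample values without a matching sample numbered 0. Starts and ends of 95.8% of genes equalled GENCODE v29, taken as GRCh38.

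Genes with a mean of at least 100 normalized counts (12195) were tested with edgeR 4.0.16 (robust quasi-likelihood test, size factors as in the deposited table), with Benjamini-Hochberg adjustment over all of them. A call needed a log2 fold change beyond 0.7 besides the adjusted p under 0.05. The study's floor of 10 CPM keeps 83 members and was an alternative, as were TMM, median of ratios, DESeq2 1.42.0, a block for the replicate letter, filterByExpr in edgeR, a filter of 1 count, a fold threshold of 1, a member floor of 200 and each library left out. A GC content offset (natural spline, 4 degrees of freedom, per library) was added after the data were seen. The fits were tested on simulated data. Blocks used positions alone. C2H2 and KRAB patterns were counted in translated GENCODE v29 transcripts, since RefSeq proteins were not used here. Software was scipy 1.17.1 under Python 3.11.15, besides R 4.3.3. Wilson intervals are at 95%.

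Named members were the 8 lowest and 8 highest fold changes, the 5 highest levels per kb, the extremes of each larger block and the genes next to the floor, with DYRK1A, TRIM28, SETDB1 and the extremes of the partner list. Exceptions are stated. The members, the lists and these rules were chosen with earlier results of these data known.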

Additional observations from a re-analysis of the deposited data

How the results depend on the processing

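Scaling decided the counts. Under TMM the members had 0 called lower, 2 called higher, 29 lower and 22 higher at the adjusted p and a median of -0.022; under median of ratios these were 0, 2, 26, 24 and -0.015, and 10 of the 31 partners were lower under either scaling. The cause was not tested. The study's floor, which tested 83 members, gave 7 called lower, 49 lower and 0 higher at the adjusted p. Fewer members were tested there. The 1 member higher at the adjusted p became 0 with filterByExpr and with no filter beyond 1 count. A fold threshold of 1 left 1 called lower, and a member floor of 200 left 13. The GC content offset left 11 called lower (5.79%, beside 13.2% of all genes), and moved the median of the members minus that of all genes from -0.018 to 0.047. Without one library in turn, 9 to 47 members were called lower, 52 to 144 were lower and 0 to 1 higher at the adjusted p, and 14 to 27 partners were lower; the medians ran from -0.50 to -0.32 and the difference from all genes from -0.056 to 0.0044.

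Some named genes changed sign. With the GC content offset ZNF653 had -0.099, ZNF428 -0.026, ZNF414 -0.021, ZNF358 -0.0024 and ZNF599 0.012, and none passed. Under TMM and median of ratios ZNF254 had 0.23 and 0.24, ZNF585B 0.25 and 0.26, ZNF599 0.35 and 0.36, SETDB1 0.22 and 0.23, and MBD3 0.37 and 0.38, of which ZNF599, SETDB1 and MBD3 passed as higher. Without one library, ZNF653 ran from -0.090 to 0.13, ZNF350 from -0.079 to 0.13, ZNF414 from -0.0028 to 0.22, ZNF506 from -0.062 to 0.093, ZNF254 from -0.30 to 0.012, ZNF599 from -0.19 to 0.075 and MBD3 from -0.11 to 0.063, and none passed.

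The correlations of deviations between libraries of one replicate letter were 0.17, 0.04 and 0.11, against -0.14 to 0.06 between letters. In 5 of the 6 libraries the highest was with the same letter, a hint from the data and not from the design, and since 1 pair lay below 0.1 the letters were not taken as pairing. With the replicate block 22 members were called lower and 0 higher, 103 were lower and 1 higher at the adjusted p, the median was -0.41 and the difference from all genes -0.02. Low counts limit the precision, with a median SE of 0.21 in log2 fold change (main fit, spike-in scaling) for members with means from 100 to 200.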
